A study of Arabidopsis thaliana with 115 samples.

Results

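Arogenate dehydratase and phenylalanine ammonia-lyase stand on either side of phenylalanine, and their 10 genes in Arabidopsis thaliana are described here across 33 transcription factors (TFs). The members are the whole of both families by gene identifier, ADT1 to ADT6 (AT1G11790, AT3G07630, AT2G27820, AT3G44720, AT5G22630 and AT1G08250) and PAL1 to PAL4 (AT2G37040, AT3G53260, AT5G04230 and AT3G10340). They are 10 of 33016 gene identifiers in the count files, and 9 of the 22883 genes that passed the filter of at least 10 counts in at least 3 libraries. The families were chosen by their changes in these same TF-against-EV comparisons, whose results were known, so the counts of calls below describe the genes and support no claim about them.

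The assay, called TARGET, expressed a fusion of a TF with a glucocorticoid receptor domain in root protoplasts of 10-day-old Col-0 seedlings. There were 97 TF libraries, 3 for each of 31 TFs and 2 each for HAT22 and FBH4, and 18 libraries of cells that carried the empty vector (EV), 3 in each of 6 batches. TF and EV cells alike received 20 mM KNO3 with 20 mM NH4NO3 (60 mM nitrogen in all), 35 µM cycloheximide, which blocks translation, and 10 µM dexamethasone, which lets the fusion enter the nucleus, and were collected 3 h after dexamethasone. Cells with HSFB2A, ERF056 or GATA17 formed batch 1 and those with TGA1 formed batch 2. Batch 3 took TGA4, HYH, HHO3, HB6, GATA17L, CRF4, COL5 and BEE2, and batch 4 took ZFP4, NAC4, LBD38, HHO2, ERF060, CDF1, C2H2, ASR3 and bZIP3. The TFs of batch 5 were MYB61, HAT22, WRKY18, TCP23, NAP and FBH4, and those of batch 6 were RAV1, DIV1, LBD37, WRKY54, ERF5 and VRN1. Each TF was compared with the EV libraries of its own batch, so TFs of a batch share the same 3 EV libraries.

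As a model the assay has limits that belong to every group. The TF was overexpressed in single cells without walls, transfected cells were selected by a fluorescent reporter, and cells of a TF in a red vector were pooled with cells of another TF in a green vector before sorting. The 3 replicates were wells filled from the transfected cells of a construct, so the p-values measure the spread between wells, which may be technical. Because cells were sorted in bulk, fewer cells of a type and less RNA per cell cannot be told apart.

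Libraries held 1542961 to 45372240 counts (median 12336285). The 10 genes with the most counts took 4.69 to 8.14% of a library in batches 1 to 4 but 18.3 to 49.5% in batches 5 and 6, and the median total was 14342552 in batches 1 to 4 and 5198905.5 in batches 5 and 6. Each of the 33 TF genes stood higher in every library transfected with it than in the rest of the libraries, with log2 fold changes of 2.90 to 13.79. In EV libraries the leaf genes RBCS1A and RBCS2B were at or near 0 (at most 0.219 CPM; CPM are counts scaled to the TMM-adjusted library total), while the endodermis gene MYB36 had 9.40 to 87.4 CPM and the phloem gene SUC2 8.58 to 107.9 CPM. The cortex marker CO2 had no count in any of the 18 EV libraries, and the root hair gene COBL9 had none in 6 of them.

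Arogenate dehydratases remove water and carbon dioxide from arogenate in the plastid and so complete the synthesis of phenylalanine. Phenylalanine ammonia-lyases take the amino group off phenylalanine as ammonium and release cinnamate, the entry into the phenylpropanoid pathway that feeds lignin, flavonoids and coumarins. The ammonium set free must be assimilated again, which ties the step to the nitrogen budget of the cell. R2R3-MYB proteins are the best known regulators of phenylpropanoid genes, and many of them bind AC elements, short cytosine-rich and adenine-rich motifs.

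The positions of the members were taken from the RefSeq annotation of TAIR10.1, while the files carry gene identifiers counted on TAIR10. ADT1 lies on chromosome 1 from 3981153 to 3985219 (plus strand, 10 exons) and ADT2 on chromosome 3 from 2435408 to 2437989 (plus strand, 11 exons). The other 4 ADT genes have a single exon: ADT3 on chromosome 2 from 11856571 to 11858288, ADT4 on chromosome 3 from 16271511 to 16273413, ADT5 on chromosome 5 from 7524086 to 7526270, all on the plus strand, and ADT6 on chromosome 1 from 2588776 to 2590609 on the minus strand. PAL1 lies on chromosome 2 from 15557367 to 15560755 and PAL2 on chromosome 3 from 19744018 to 19747114, both on the minus strand with 2 exons. PAL3 lies on chromosome 5 from 1160569 to 1163957 and PAL4 on chromosome 3 from 3203988 to 3208135, both on the plus strand with 3 exons. PAL1 and PAL2 transcripts were 83.3% identical over their alignment with a longest shared run of 80 bases, so reads inside that run could have come from either gene. No other pair within a family shared a run of more than 32 bases.

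AC elements were searched on both strands as ACCTACC, as the variant ACCAACC and as the variant ACCTAAC, because the TF with the largest effect on these genes was an R2R3-MYB. In the window from 250 bases before to 50 bases after the annotated transcript start, 3 of the 10 members (ADT4, PAL1 and PAL2) held an AC element, against 7.29% of 27444 genes. All 3 matches lay after the start, and with the bases before the start alone no member matched, against 6.12% of genes. In the 500 bases before the start codon, a window added after those matches had been seen, 8 of 10 members held an AC element (all but ADT2 and PAL4), against 11.6% of genes. In the first window TGACG, the core bound by TGA factors, was found in 4 members against 23.1% of genes, and TTGAC, the core bound by WRKY factors, in 6 members against 50.5% (the 2 cores overlap where TTGACG occurs). CAACA, the motif of RAV1, was found in 6 members (ADT1, ADT2, ADT4, ADT5, ADT6 and PAL3) against 54.2%. AATNATT, for homeodomain-leucine zipper proteins, was found in ADT3, ADT5, PAL1 and PAL2, against 33.8%. CACGTG was found in PAL4 (7.68% of genes), GAANNTTC in ADT4 (11.6%) and GCCGCC in no member (2.57%). The part of these motifs in any change was not tested. In the longer window ACCTACC by itself was found in ADT3, ADT4, ADT5, ADT6 and PAL1, against 2.16% of genes, and all of these matches lie between the annotated transcript start, 22 to 334 bases from it, and the start codon.

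The stretches below give 27 bases around an AC element of 7 members, 5′ to 3′ on the strand of the gene, with the element in capitals (GGTAGGT is ACCTACC read on the other strand). They are shown as a description of the sequences, and their part in any change was not tested. PAL4 was induced in MYB61 cells and held no AC element in either window, while ADT1 and PAL3 held one and were not called there. The ADT3 stretch lies at chr2:11856670-11856696, ADT4 at chr3:16271522-16271548, ADT5 at chr5:7524394-7524420 and ADT1 at chr1:3981361-3981387 (plus strand). The PAL1 stretch lies at chr2:15560406-15560432 and PAL2 at chr3:19746770-19746796 (minus strand), and PAL3 at chr5:1160616-1160642 (plus strand), all in TAIR10.1.
ADT3: aatggtggtaGGTAGGTgaagaacggt
ADT4: catggaaggtGGTAGGTgaaggatttt
ADT5: aatgaaatgtGGTAGGTgaaggatttg
PAL1: ctatacgcttACCTACCaacaaacact
PAL2: tcttgtccttACCTAACaacaacacta
ADT1: attctttctcACCAACCccatttcccc
PAL3: caaggcacaaACCAACCcactcactca

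In the stretches shown for ADT3, ADT4 and ADT5 the element was on the opposite strand to the gene and was followed by the same 4 bases. ADT3 holds another match that overlaps the one shown, and ADT6, not shown, holds one on the opposite strand too. Both of these are followed by other bases. A match is a description of the letters and not a binding site.

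Before any TF, the members differed in level by orders of magnitude. In EV libraries ADT5 averaged 255 ± 183 RPKM (counts per kilobase of exon, scaled to the library total; SD, n = 18), ADT4 211 ± 91.2, PAL1 208 ± 161, PAL2 134 ± 84.0 and PAL4 51.2 ± 45.0. These SDs hold the differences between batches, and the order turned with the batch. PAL2 was above PAL4 without overlap in each of the 6 batches. ADT5 had the highest mean in batches 3 and 4, but lay below ADT4 in batch 1 (284 against 304 RPKM), below PAL1 in batch 2 (341 against 397 RPKM) and below ADT4, PAL1 and PAL2 in batches 5 and 6 (21.3 RPKM, against 106, 47.7 and 45.2). At a lower mean level stood ADT1 at 8.402 ± 2.68 RPKM, ADT2 at 7.24 ± 3.63 and ADT3 at 2.79 ± 1.00. ADT1 was above ADT2 without overlap in batches 1 to 3, and ADT2 above ADT1 in batch 5. In batches 5 and 6 PAL4 averaged 3.69 RPKM, below ADT1 (7.65) and ADT2 (11.4), and every EV library had less of ADT1, ADT2 and ADT3 than of ADT4. PAL3 averaged 0.253 ± 0.181 RPKM, with a median of 8 counts per library over all libraries and no count in 12 of them.

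ADT6 was nearly absent: it had 3 counts in all libraries together, none above 1 in any library, and could not be tested. Its exon lies mostly within TIL1 (AT1G08260) on the opposite strand, which covers 1756 bases or 95.7% of it and had 224535 counts. Counting by strand is not stated, so whether a read in such an overlap was assigned to a gene is not known. Of protein-coding genes that share at least 50% of their exon bases with another gene, 401 of 1113 (36.0%) had at most 1 count in any library, against 760 of 19821 genes (3.83%) that share none. The ADT6 value therefore cannot be read as a level of ADT6 RNA.

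The more abundant members differed between sets of batches. ADT5 had 663 to 1336 CPM in the 12 EV libraries of batches 1 to 4, against 35.5 to 50.7 CPM in the 6 of batches 5 and 6, a ratio of means of 20.5. PAL4 had 90.8 to 404 CPM in batches 1 to 4, against 5.70 to 15.0 CPM in batches 5 and 6, a ratio of 23.7. PAL1 (ratio 7.06), PAL2 (4.59) and ADT4 (2.998) were likewise higher in every EV library of batches 1 to 4 than in any of batches 5 and 6. ADT1, ADT2, ADT3 and PAL3 overlapped between the sets, and ADT2 averaged 9.09 CPM in batches 1 to 4 and 17.6 CPM in batches 5 and 6. Among the 14329 genes that averaged 5 CPM or more in either set, 2.75% had a larger ratio than PAL4, 3.11% than ADT5, 7.91% than PAL1, 11.4% than PAL2 and 16.7% than ADT4. Depth and the share of the top 10 genes moved with the same split, and their part in it was not tested.

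**Figure D1:**
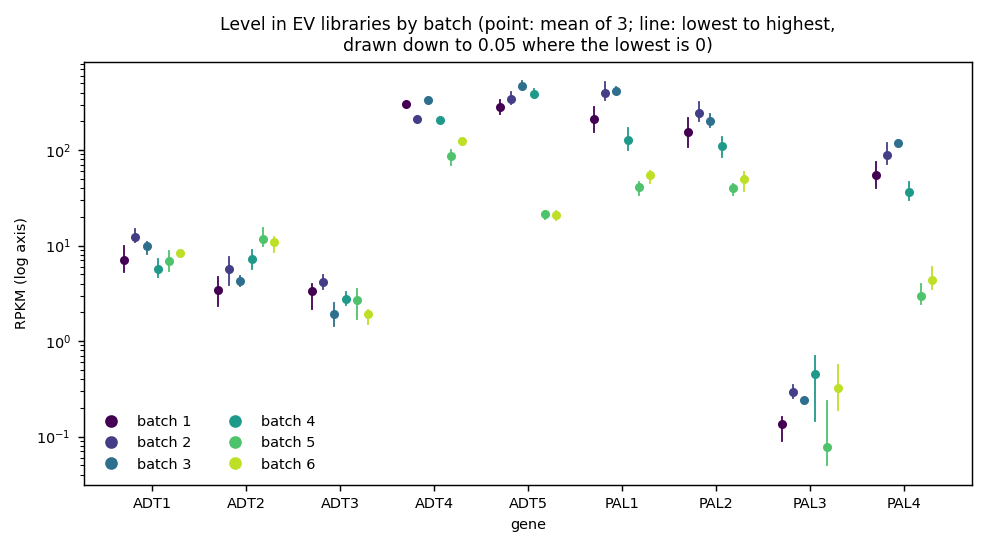
RPKM (log axis) of 9 members in the EV libraries of each batch. Points are means of 3 libraries and lines run from the lowest to the highest library. ADT5 and PAL4 sit lowest in batches 5 and 6, with ratios of means of 20.5 and 23.7 between the sets of batches, while ADT1, ADT2 and ADT3 stay below ADT4 in every batch.

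The wells also had an order. Among EV libraries, the library numbered 1 had the most ADT5, PAL1, PAL2 and PAL4 of its 3 in all 6 batches, which held for 1.27% of the 13337 genes that averaged 5 CPM or more in EV libraries. Among the 31 TFs with 3 libraries, the library numbered 1 was the highest for PAL2 in 24, for PAL1 and PAL4 in 22 each and for ADT5 in 21. ADT4 showed no such order, with the library numbered 1 highest in 1 of 6 EV batches and in 12 of 31 TFs.

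Over 33 TFs, 69 of the 297 tested member-by-TF comparisons were called by edgeR's quasi-likelihood test (FDR, the Benjamini-Hochberg adjusted p, under 0.05). In 13 the TF induced the gene, and in 56 it repressed the gene. Over all genes tested, 4.59% of gene-by-TF comparisons were called induced and 4.99% repressed. For the ADT genes 8 of 165 comparisons (4.85%) were induced and 34 (20.6%) repressed, and for the PAL genes 5 of 132 (3.79%) were induced and 22 (16.7%) repressed. The median log2 fold change was -0.12 for ADT genes and -0.20 for PAL genes, against 0.00 over all genes. Without the libraries numbered 2 in every group, 36 of the 69 calls remained, with 19 repressed ADT calls and 7 repressed PAL calls, and without those numbered 1 there were 14 repressed PAL calls. A replicate block, with a term for each replicate number within a batch, gave 38 repressed PAL calls. No call changed sign under any alternative.

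The direction differed with the batches. In batches 1 to 4 the ADT genes had 1 induced and 29 repressed calls in 105 comparisons (0.952% and 27.6%), and the PAL genes none and 17 in 84 (20.2% repressed), where 3.75% of all comparisons were induced and 4.61% repressed. In batches 5 and 6 the ADT genes had 7 induced and 5 repressed calls in 60 comparisons (11.7% and 8.33%), and the PAL genes 5 and 5 in 48 (10.4% each), where 6.07% of all gene-by-TF comparisons were induced and 5.65% repressed. All 5 induced PAL calls of batches 5 and 6 were in MYB61 and HAT22. The induced ADT calls there were also in these TFs, but for ADT4 in TCP23 and in WRKY18. The repressed calls there were in NAP, DIV1, LBD37, RAV1 and WRKY54. The sets hold different TFs, so the batch and the TF cannot be told apart here.

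**Figure D2:**
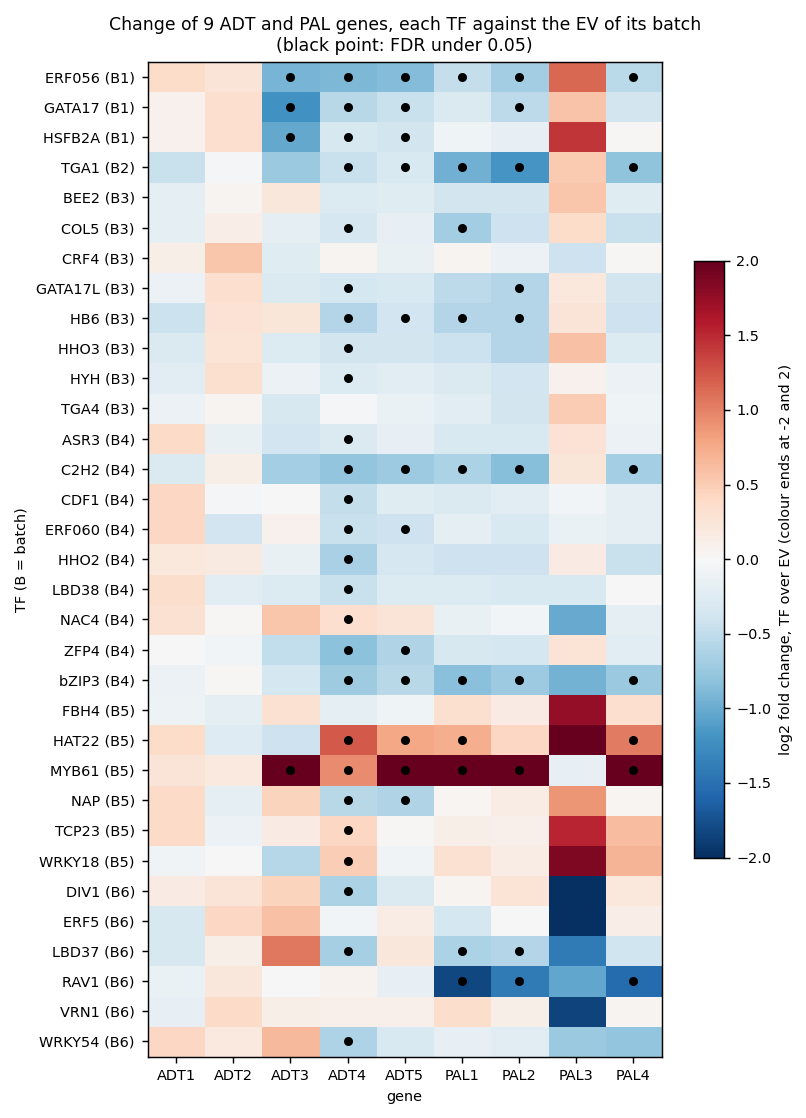
Log2 fold change of 9 members (columns) in each of 33 TFs against the EV libraries of its batch (rows, by batch). Colour runs from blue (lower in TF cells) to red (higher) and ends at -2 and 2, and black points mark an FDR under 0.05. ADT4 has 26 points, MYB61 is the row of 6 induced genes, and ADT1, ADT2 and PAL3 have no point in any row.

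Counts of calls differed within the families. ADT4 was called in 26 of 33 TFs, ADT5 in 12, PAL1 and PAL2 in 10 each, PAL4 in 7 and ADT3 in 4. The median log2 fold change over 33 TFs was -0.35 for ADT4 and -0.25 for ADT5. It was -0.29 for PAL1, -0.31 for PAL2, -0.18 for PAL4 and -0.15 for ADT3. The errors differed as well: in ERF056 the SE was 0.09 for ADT4, 0.12 for ADT5, 0.18 for PAL1 and 0.30 for ADT3. The counts of calls therefore do not rank the members by size of change. Without the libraries numbered 2, ADT4 was called in 19, ADT5 in 6, PAL1 in 4, PAL2 and PAL4 in 3 each and ADT3 in 1, and without those numbered 1, PAL2 was called in 4. With a replicate block, PAL2 was repressed in 18 TFs, PAL1 in 13 and ADT5 in 15, in place of 9, 8 and 10. ADT1 and ADT2, at 9.21 to 24.7 CPM and 4.99 to 25.5 CPM in EV libraries, were called in none, with log2 fold changes of -0.44 to 0.42 and -0.39 to 0.55. ADT1 was repressed in 1 TF with DESeq2, with the sets of batches fitted apart or with a replicate block. It was repressed in 2 TFs with each batch fitted alone and induced in 1 without the libraries numbered 1. ADT3, with a lower mean over all EV libraries than ADT1 and ADT2, was called induced in MYB61. It was called repressed in 3 TFs that share the EV libraries of batch 1. Whether level bears on the calls was not tested. PAL3 was also called in none, with log2 fold changes of -2.66 to 2.32, and was called in 1 TF with DESeq2, with the sets of batches fitted apart, or without the libraries numbered 3.

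By TF, 6 members were called in MYB61, where 11.7% of all genes were called in either direction, and in ERF056 (18.7%). The 6 were the same, ADT3, ADT4, ADT5, PAL1, PAL2 and PAL4, all induced in MYB61 and all repressed in ERF056. The 5 genes ADT4, ADT5, PAL1, PAL2 and PAL4 were repressed in TGA1 (19.7% of all genes called), C2H2 (15.3%) and bZIP3 (13%). With 4 members called were HAT22 (17%), HB6 (6.54%) and GATA17 (16.1%). With 3 were HSFB2A (21.9%), LBD37 (10.7%) and RAV1 (24.4%), and with 2 were COL5 (3.97%), GATA17L (4.58%), ERF060 (4.72%), ZFP4 (9.13%) and NAP (8.4%). Without the libraries numbered 2, all 6 calls of MYB61 and all 3 of RAV1 remained, with 4 in TGA1 and 3 in bZIP3. There were then 2 each in ERF056 and C2H2, 1 each in HB6, GATA17 and LBD37 and none in HSFB2A. HAT22 was left with a single library in that fit, so its calls are not counted here.

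In 11 TFs ADT4 was the single member called. It was repressed in HHO3 (2.91% of all genes called), HYH (6.83%), ASR3 (3.74%), CDF1 (7.04%), HHO2 (8.59%), LBD38 (4.62%), DIV1 (25.3%) and WRKY54 (10.7%). It was induced in NAC4 (5.13%), TCP23 (10.4%) and WRKY18 (5.92%). No member was called in BEE2 (0.891%), CRF4 (0.708%), TGA4 (1.39%), FBH4 (6.29%), ERF5 (7.34%) or VRN1 (2.55%). DIV1, with the most genes called of all 33 TFs, thus moved 1 member, and ERF056, with fewer, moved 6.

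MYB61, an R2R3-MYB known from xylem, roots and stomata, had the largest effects on both families. PAL1 had 1860, 1731 and 1593 CPM in MYB61 cells, against 128, 124 and 85.8 CPM in EV cells. The lowest MYB61 library was over 10 times the highest EV library, and the log2 fold change was 3.95 ± 0.20 (SE; FDR 5.84e-29). PAL2 had 1798, 1781 and 1582 CPM in MYB61 cells and 128, 114.8 and 83.8 CPM in EV cells (3.98 ± 0.20, FDR 1.07e-28). PAL1 and PAL2, thought to supply most PAL activity for lignin and flavonoids, thus rose by 15.4-fold and 15.8-fold.

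PAL4, a further PAL isoform, had 134, 126 and 104 CPM in MYB61 cells, against 10.9, 6.42 and 5.70 CPM in EV cells. It rose by 15.4-fold (log2 fold change 3.95 ± 0.27, FDR 1.11e-21), within the errors of the change in PAL1. PAL3 had 0.161, 0.169 and 0 CPM in MYB61 cells and 0, 0.558 and 0 CPM in EV cells, too few counts for a comparison.

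Of the arogenate dehydratases, ADT3 moved most in MYB61. It had 39.2, 40.2 and 35.6 CPM in MYB61 cells, against 6.13, 4.47 and 2.51 CPM in EV cells, a log2 fold change of 3.13 ± 0.32 (FDR 3.80e-14). A gene of the lower tier in EV cells thus rose 8.77-fold. ADT5 had 208, 203 and 162 CPM in MYB61 cells and 50.7, 46.1 and 35.5 CPM in EV cells (2.12 ± 0.13, FDR 1.15e-26). ADT4 had 284, 323 and 265 CPM in MYB61 cells and 136, 156 and 163 CPM in EV cells (0.94 ± 0.09, FDR 9.24e-16). The MYB61 libraries lay above all EV libraries for all 3 genes, and the increase in ADT4 was smaller than that in ADT5 or ADT3.

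ADT1 and ADT2, the ADT genes with many exons, overlapped between MYB61 and EV cells. ADT1 had 13.96, 12.3 and 17.3 CPM in MYB61 cells and 12.3, 9.21 and 14.1 CPM in EV cells (0.26 ± 0.20, FDR 0.485). ADT2 had 30.2, 14.4 and 19.4 CPM in MYB61 cells and 25.5, 14.8 and 14.7 CPM in EV cells (0.20 ± 0.20, FDR 0.608). Among marker genes, the summed level of the 3 xylem genes VND7, XCP1 and IRX3 was 5.98 to 9.31 CPM in MYB61 cells and 1.16 to 3.35 CPM in EV cells, with none of the 3 called. The 3 endodermis genes summed to 61.2 to 93.7 CPM in MYB61 cells and 99.5 to 117 CPM in EV cells, with 1 gene induced and 1 repressed, the phloem genes to 101.6 to 102.8 CPM in MYB61 cells and 84.3 to 92.5 CPM in EV cells, with 1 induced, and the part of these cells in the result was not tested.

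**Figure D3:**
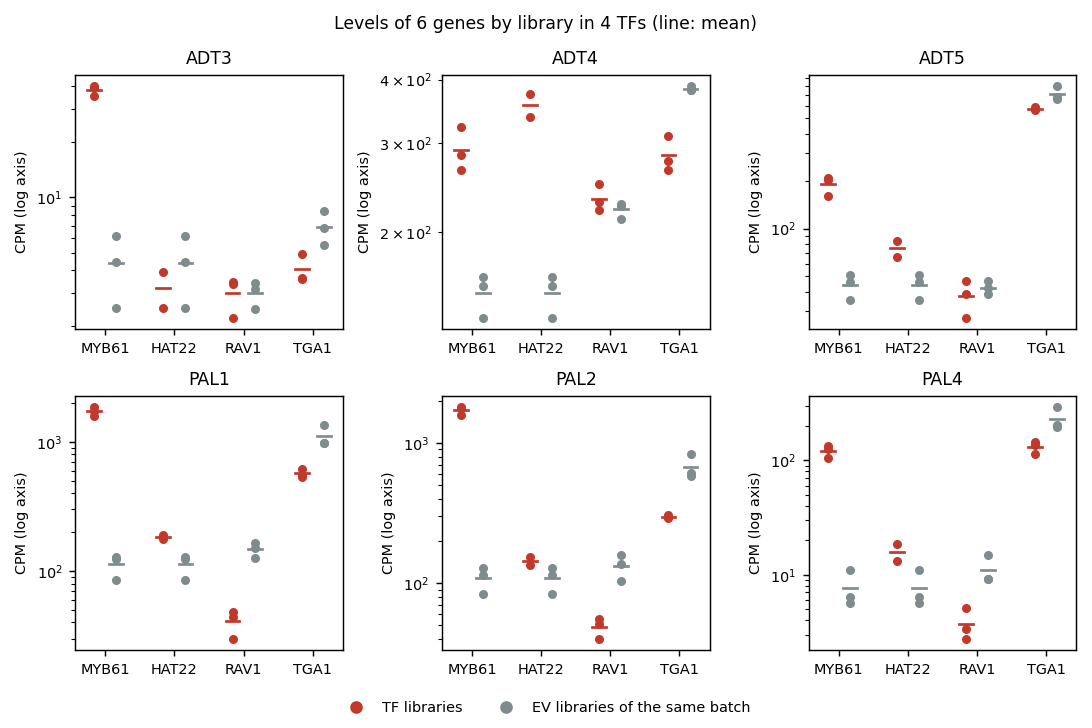
CPM (log axis) of 6 members in each library of 4 TFs (red) and in the EV libraries of the same batch (grey), with a line at the mean. The MYB61 libraries stand above their EV libraries in every panel. In RAV1 the PAL1, PAL2 and PAL4 libraries lie below EV while ADT4 has 221 to 249 CPM in RAV1 cells and 213 to 228 CPM in EV cells.

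HAT22, a homeodomain-leucine zipper protein of class II, was the other TF that induced several members, and it did so in another order. ADT4 had 374 and 338 CPM in the 2 HAT22 libraries, against 136, 156 and 163 CPM in EV cells (1.23 ± 0.10, FDR 3.42e-20). This was the largest change of ADT4 in any of the 33 TFs. ADT5 had 83.8 and 66.4 CPM in HAT22 cells and 50.7, 46.1 and 35.5 CPM in EV cells (0.77 ± 0.15, FDR 2.40e-05). PAL1 had 191 and 177 CPM in HAT22 cells, against 128, 124 and 85.8 CPM in EV cells (0.72 ± 0.20, FDR 0.00735). PAL4 had 18.7 and 13.2 CPM in HAT22 cells and 10.9, 6.42 and 5.70 CPM in EV cells (1.04 ± 0.34, FDR 0.0241). That call was lost (FDR 0.0934) when batches 5 and 6 were fitted apart from the rest, and without the libraries numbered 3. Without those numbered 1 or 2 a single HAT22 library was left, and PAL4 changed by 1.15 and 1.17. PAL2 had 154 and 136 CPM in HAT22 cells, both above EV cells at 128, 114.8 and 83.8 CPM, and did not pass (0.42 ± 0.21, FDR 0.183). ADT3 overlapped EV in HAT22 cells (-0.42 ± 0.44, FDR 0.601). With a single HAT22 library left, PAL1 changed by 0.78 without the libraries numbered 1 and by 0.84 without those numbered 2. The endodermis genes summed to 56.6 to 73.1 CPM in HAT22 cells and 99.5 to 117 CPM in EV cells, with 1 induced and 1 repressed. The xylem genes (4.27 to 5.02 CPM in HAT22 cells, 1.16 to 3.35 CPM in EV cells), the phloem genes (96.4 to 99.0 against 84.3 to 92.5 CPM) and the root hair genes (0.534 to 1.14 against 0 to 0.279 CPM) summed higher than EV with none called, and their part in the result was not tested.

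RAV1, an AP2 and B3 domain protein, lowered PAL1, PAL2 and PAL4, and no ADT gene was called. PAL3 was not called either (-1.04 ± 0.80, FDR 0.377). PAL1 had 44.3, 48.6 and 29.9 CPM in RAV1 cells, against 164, 150 and 127 CPM in EV cells, and fell by 1.82 ± 0.20 on the log2 scale (FDR 2.71e-12). PAL2 had 51.4, 55.8 and 40.2 CPM in RAV1 cells and 159, 137 and 104 CPM in EV cells (-1.42 ± 0.20, FDR 1.10e-08). PAL4 had 5.11, 3.37 and 2.76 CPM in RAV1 cells and 15.0, 9.13 and 9.10 CPM in EV cells (-1.54 ± 0.36, FDR 0.000629). These were the largest decreases of the 3 genes in any TF, while ADT4 changed by 0.07 ± 0.09 (FDR 0.615) and ADT3 by 0.01 ± 0.40. In RAV1 cells the endodermis genes summed to 23.0 to 28.4 CPM, against 66.2 to 83.5 CPM in EV cells, with all 3 repressed, and the phloem genes to 42.9 to 45.9 CPM, against 80.5 to 101.6 CPM, with both repressed. The xylem genes summed to 2.99 to 4.26 CPM in RAV1 cells, against 6.34 to 11.1 CPM in EV cells, with 1 repressed. The part of these cell types in the PAL result was not tested.

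TGA1, a basic leucine zipper factor of the nitrate response, repressed 3 of the 4 PAL genes and 2 of the 5 tested ADT genes. PAL2 had 292, 305 and 294 CPM in TGA1 cells, against 830, 612 and 577 CPM in EV cells (-1.18 ± 0.18, FDR 3.12e-07). PAL1 had 540, 622 and 550 CPM in TGA1 cells and 1358, 982 and 990 CPM in EV cells (-0.96 ± 0.18, FDR 1.56e-05). PAL4 had 144, 137 and 113 CPM in TGA1 cells and 292, 197 and 204 CPM in EV cells (-0.81 ± 0.19, FDR 0.000948). ADT4 fell by 0.44 ± 0.09 and ADT5 by 0.31 ± 0.12 (FDR 4.39e-05 and 0.0476), and for all 5 genes every TGA1 library lay below every EV library. The ADT5 call was lost without the libraries numbered 1 (FDR 0.26) or 2 (FDR 0.242). ADT3 (-0.74 ± 0.30, FDR 0.0648) and ADT1 (-0.44 ± 0.17, FDR 0.0516) also lay below EV in every TGA1 library and did not pass. The root hair genes COBL9 and EXPA7 were both repressed in TGA1 cells, with a sum of 7.50 to 8.85 CPM against 35.0 to 45.5 CPM in EV cells, as were both phloem genes (22.1 to 26.2 CPM against 34.7 to 38.0 CPM). The endodermis genes summed to 30.1 to 44.5 CPM in TGA1 cells and 40.1 to 60.4 CPM in EV cells, with 1 repressed. The part of these cell types in the result was not tested.

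ADT4 was the most often called member, with 21 TFs that repressed it and 5 that induced it. TFs of a batch share their 3 EV libraries, so these calls are not independent. The repressing TFs were 3 of 3 in batch 1, 1 of 1 in batch 2, 5 of 8 in batch 3 and 8 of 9 in batch 4. In batches 5 and 6 they were 1 of 6 and 3 of 6. The repressions were small and close among libraries, with called log2 fold changes of -0.90 to -0.28. In ERF056 cells it had 373, 394 and 373 CPM, against 682, 705 and 742 CPM in EV cells (-0.90 ± 0.09, FDR 5.10e-15). In ZFP4 cells it had 244, 222 and 232 CPM, against 416, 364 and 449 CPM in EV cells (-0.82 ± 0.09, FDR 4.86e-13). In C2H2 cells it had 239, 236 and 237 CPM, against those same 3 EV libraries (-0.79 ± 0.09, FDR 1.27e-12). Among markers, the xylem genes summed to 8.22 to 10.3 CPM in ERF056 cells and 12.9 to 26.1 CPM in EV cells, with 2 repressed, and the endodermis genes to 38.1 to 41.4 against 31.97 to 34.01 CPM, with 1 induced. In C2H2 cells the endodermis genes summed to 12.9 to 16.7 CPM, against 19.7 to 26.2 CPM in EV cells (2 repressed), and the phloem genes to 103.8 to 122 CPM, against 137 to 145 CPM (1 repressed), and the xylem genes to 15.5 to 18.3 CPM, against 22.2 to 27.1 CPM (none called). Their part in the ADT4 result was not tested. Of the 9 TFs in batch 4, 8 repressed ADT4 and NAC4 induced it, with 533, 497 and 525 CPM in NAC4 cells (0.34 ± 0.09, FDR 0.00704).

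The inductions of ADT4 came from batch 5 but for NAC4. Of the 6 TFs in that batch, 4 induced it and NAP repressed it, with 102, 112 and 96.1 CPM in NAP cells, against 136, 156 and 163 CPM in EV cells (-0.55 ± 0.09, FDR 1.73e-06). WRKY18 cells had 222, 230 and 189 CPM (0.49 ± 0.09, FDR 4.17e-05) and TCP23 cells 207, 203 and 194 CPM (0.41 ± 0.09, FDR 0.000589). The calls of WRKY18, TCP23 and NAC4 were lost without the libraries numbered 1 (FDR 0.0629, 0.0719 and 0.0868). That of NAC4 was also lost without those numbered 2 (FDR 0.412). The induction of ADT4 in MYB61 remained in every fit. In HAT22, leaving out the libraries numbered 1 or 2 left a single HAT22 library, with log2 fold changes of 1.09 and 1.33, and the other fits kept the call. The range of ADT4 within a batch was thus wide: in batch 5, TF libraries ran from 96.1 to 374 CPM over EV libraries of 136 to 163 CPM. BEE2 cells had 603, 588 and 632 CPM, all below the EV libraries of batch 3 at 748, 759 and 703 CPM, and did not pass (-0.28 ± 0.09, FDR 0.113).

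**Figure D4:**
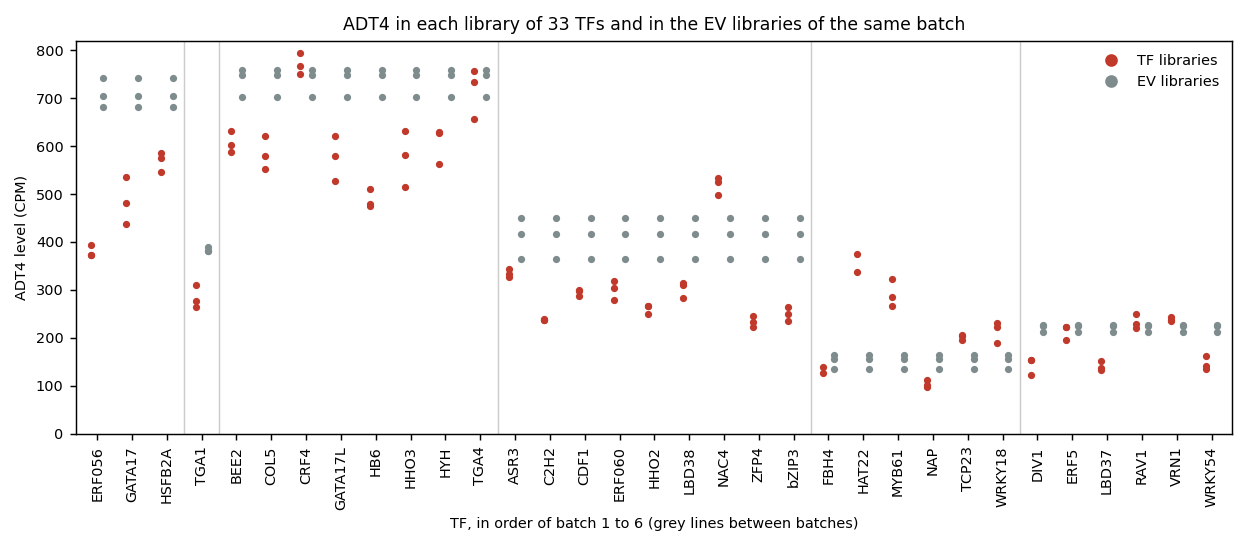
ADT4 level (CPM, linear axis from 0) in each library of 33 TFs (red, left of each pair) and in the EV libraries of the same batch (grey, right), in order of batch. In batch 4, libraries of 8 TFs lie below all 3 EV libraries and those of NAC4 above, and in batch 5 the HAT22 and MYB61 libraries stand highest.

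ADT5, a close relative of ADT4 by transcript sequence (79% identity), was called in fewer TFs. All 12 TFs with a call in ADT5 also had a call in ADT4 in the same direction. Its largest decreases were in ERF056 cells, with 443, 392.4 and 416 CPM against 834, 757 and 678 CPM in EV cells (-0.86 ± 0.12, FDR 8.02e-09), and in C2H2 cells, with 563, 505 and 526 CPM against 945, 759 and 935 CPM in EV cells (-0.73 ± 0.12, FDR 6.41e-07). ZFP4 cells followed, with 593, 594 and 554 CPM (-0.60 ± 0.12, FDR 7.88e-05). WRKY18 and TCP23, which induced ADT4, gave no call in ADT5.

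ADT3 was called repressed in the 3 TFs of batch 1. It had 3.77, 2.84 and 2.48 CPM in GATA17 cells (-1.21 ± 0.31, FDR 0.00220), 4.53, 2.68 and 3.16 CPM in HSFB2A cells (-1.03 ± 0.31, FDR 0.00764) and 3.34, 4.02 and 3.66 CPM in ERF056 cells (-0.93 ± 0.30, FDR 0.0202). The EV libraries they share had 7.77, 8.09 and 4.89 CPM, so the 3 comparisons are not independent. All 3 calls were lost without the libraries numbered 2 (FDR 0.152, 0.33 and 0.231), that of ERF056 also without those numbered 1 (FDR 0.119), and ADT3 was repressed in 5 TFs when each batch was fitted alone and in 4 with DESeq2. In LBD37 cells ADT3 had 7.39, 4.85 and 6.19 CPM, against 3.41, 3.17 and 2.47 CPM in EV cells, and narrowly missed the threshold (1.05 ± 0.37, FDR 0.0502), while PAL1 and PAL2 were repressed there.

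In TFs other than MYB61, RAV1, TGA1 and HAT22, called changes of the PAL genes were smaller than 1 on the log2 scale. PAL1 had 236, 214 and 195 CPM in bZIP3 cells, against 494, 329 and 325 CPM in EV cells (-0.83 ± 0.18, FDR 0.000300). PAL2 had 213, 178 and 153 CPM in C2H2 cells, against 394, 315 and 272 CPM in EV cells (-0.85 ± 0.18, FDR 0.000197). PAL4 had 68.6, 61.0 and 53.9 CPM in bZIP3 cells, against 125, 91.1 and 90.8 CPM in EV cells (-0.74 ± 0.20, FDR 0.00434). The libraries did not overlap in any of the 3. Nearer the threshold, PAL2 was repressed in GATA17 cells (-0.53 ± 0.18, FDR 0.0289) and HB6 cells (-0.58 ± 0.18, FDR 0.0309), PAL4 in ERF056 cells (-0.54 ± 0.19, FDR 0.0357) and PAL1 in ERF056 cells (-0.48 ± 0.18, FDR 0.0442), and the PAL1 call was lost without the filter on low counts (FDR 0.053). Without the libraries numbered 1 the PAL1 and PAL2 calls nearest the threshold were lost (FDR 0.0914 to 0.254), and without those numbered 2 all 4 were (FDR 0.296 to 0.477), as were PAL2 in C2H2 (FDR 0.0708) and PAL4 in bZIP3 (FDR 0.129).

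Related TFs were set against each other directly, as the difference of their 2 changes in the same fit, for 7 pairs chosen after the values had been seen. The share of all genes called was 17.1% for HAT22 minus HB6, 10.4% for WRKY54 minus WRKY18, 7.6% for LBD37 minus LBD38, 4.26% for GATA17 minus GATA17L, 2.02% for TGA1 minus TGA4, 1.86% for ERF056 minus ERF060 and 0.35% for HHO2 minus HHO3. The pairs come from different batches, each TF being set against its own EV libraries, so the batch and the TF cannot be told apart in these differences.

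HAT22 and HB6, both homeodomain-leucine zipper proteins, differed in 6 members. The difference was 1.82 ± 0.13 for ADT4 (FDR 6.57e-23), 1.15 ± 0.19 for ADT5 (FDR 6.29e-07), 1.31 ± 0.27 for PAL1 (FDR 9.89e-05), 1.00 ± 0.28 for PAL2 (FDR 0.00512), 1.47 ± 0.39 for PAL4 (FDR 0.00367) and 0.80 ± 0.28 for ADT1 (FDR 0.0356), each higher for HAT22. WRKY54 and WRKY18 differed by -1.10 ± 0.13 for ADT4 (FDR 1.91e-11), repressed by WRKY54 and induced by WRKY18, and by -1.46 ± 0.47 for PAL4 (FDR 0.0315), for which neither TF was called against EV. The decrease of ADT4 against EV was larger in ERF056 cells than in ERF060 cells (difference -0.45 ± 0.12, FDR 0.0270). No member was called between TGA1 and TGA4, LBD37 and LBD38, GATA17 and GATA17L or HHO2 and HHO3.

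Across all libraries, with the mean of each batch subtracted, the log2 CPM (prior count 2) of PAL1 and PAL2 had a Pearson r of 0.97, and of 0.93 over the 112 libraries other than MYB61. PAL4 had r of 0.89 with PAL1 and 0.88 with PAL2 (0.76 and 0.75 without MYB61), and ADT4 had r of 0.70 with ADT5 (0.73 without MYB61). ADT4 and PAL1 had r of 0.41 (0.32 without MYB61), and ADT3 and PAL1 0.60, which was 0.25 without MYB61. PAL3 had r between -0.20 and 0.11 with every other member, with or without MYB61. These are descriptions over libraries that share batches, wells and EV groups, and PAL1 and PAL2 can share reads.

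Of all genes tested, the most like PAL1 after PAL2 were C4H (AT2G30490; r = 0.933), the cinnamate hydroxylase of the next step, and ABCG29 (AT3G16340; r = 0.909), a transporter of monolignols. For PAL2 the same genes followed PAL1, with C4H at 0.932 and ABCG29 at 0.908. Without MYB61, C4H had r of 0.847 with PAL1 and 0.839 with PAL2, and ABCG29 0.812 and 0.809. For ADT4 the most alike were PEPR1 (AT1G73080; r = 0.776), a receptor of the Pep danger peptides, AT1G61890 (0.771) and MPK3 (AT3G45640; r = 0.761), a mitogen-activated protein kinase of stress signalling.

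The genes around the members were counted in 7 lists with 48 genes, of which 47 were tested. The general phenylpropanoid genes after PAL (C4H and the 4CL genes, which activate the acids as coenzyme A esters) had 16 of 165 comparisons induced and 53 repressed (32.1%). The shikimate and chorismate genes had 6 of 297 induced and 72 repressed (24.2%), and the tryptophan branch 25 of 231 induced and 57 repressed (24.7%). The monolignol genes had 27 of 363 induced and 76 repressed (20.9%), and the list of chorismate mutases, prephenate aminotransferase and arogenate dehydrogenases 3 of 198 induced and 21 repressed (10.6%). These 5 lists, like the ADT and PAL genes, had more repressed than induced calls, where all genes had 4.59% induced and 4.99% repressed. The direction of the 7 lists together turned with the batches, with 21 of 987 comparisons induced and 280 repressed in batches 1 to 4 (2.13% and 28.4%), and 102 of 564 induced and 31 repressed in batches 5 and 6 (18.1% and 5.5%). The list of MYB regulators was even, with 26 of 198 induced and 28 repressed, and the Kelch F-box proteins that mark PAL for degradation had 20 of 99 induced and 4 repressed.

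The genes called in most TFs were, in the shikimate list, DHS3 (18 TFs, 16 of them repressing), a synthase of the first step, and EMB1144, the chorismate synthase (17, 16 repressing). In the general phenylpropanoid list they were 4CL5 (20 TFs, 13 repressing) and 4CL1 (17, 13 repressing), and among monolignol genes CCR2 (19, 15 repressing) and COMT1 (15, 14 repressing). PAT, the prephenate aminotransferase whose product the ADT enzymes use, was called in 14 TFs, 13 of them repressing, and CM1, a chorismate mutase, in 9 (7 repressing). In the tryptophan branch ASB1 (15 TFs, 7 inducing) and TSB1 (15 TFs, 6 inducing) moved both ways. KFB20, which targets PAL for degradation, was induced in 12 TFs and repressed in none. KFB50 was called in 6 TFs, all inducing, and KFB01 in 6, of which 4 repressed it and 2 induced it. Of the MYB genes, MYB15, an activator of lignin genes, was called in 20 TFs (15 repressing) and MYB4, a repressor of C4H, in 10 (9 inducing).

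In MYB61 cells the induction ran through the surrounding pathway as well: 5 of 9 shikimate and chorismate genes, 2 of 6 genes of the arogenate list, 6 of 7 of the tryptophan branch, 5 of 5 general phenylpropanoid genes, 9 of 11 monolignol genes and 6 of 6 MYB genes were induced, and none of these genes was repressed. DHS3 had a log2 fold change of 2.07 ± 0.13 (FDR 3.81e-28), C4H of 2.79 ± 0.15 (FDR 1.30e-30) and COMT1 of 1.53 ± 0.13 (FDR 4.88e-19). None of the 3 tested Kelch F-box genes was called in MYB61 cells. The median log2 fold change was 2.40 for the general phenylpropanoid list and 0.18 for the arogenate list, against 0.00 over all genes. Of all genes, 11.7% were called in either direction in MYB61 cells.

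In RAV1 cells 4 of 5 general phenylpropanoid genes were repressed, with C4H at -1.12 ± 0.14 (FDR 2.93e-10), along with 6 of 9 shikimate and chorismate genes and 4 of 11 monolignol genes. In the tryptophan branch 3 of 7 genes were induced and 1 was repressed. Of all genes, 24.4% were called in either direction in RAV1 cells. In HAT22 cells, where 17% of all genes were called, 4 of 5 general phenylpropanoid genes were induced (median 1.77), against 1 of 9 shikimate and chorismate genes. The tryptophan branch had 4 of 7 genes induced there (median 0.51). Of the 11 monolignol genes 2 were induced and 2 repressed (median 0.00). In TGA1 cells 8 of 9 shikimate and chorismate genes, 6 of 7 tryptophan genes and 5 of 5 general phenylpropanoid genes were repressed. None of these 3 lists had a gene induced, and 19.7% of all genes were called in TGA1 cells.

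**Figure D5:**
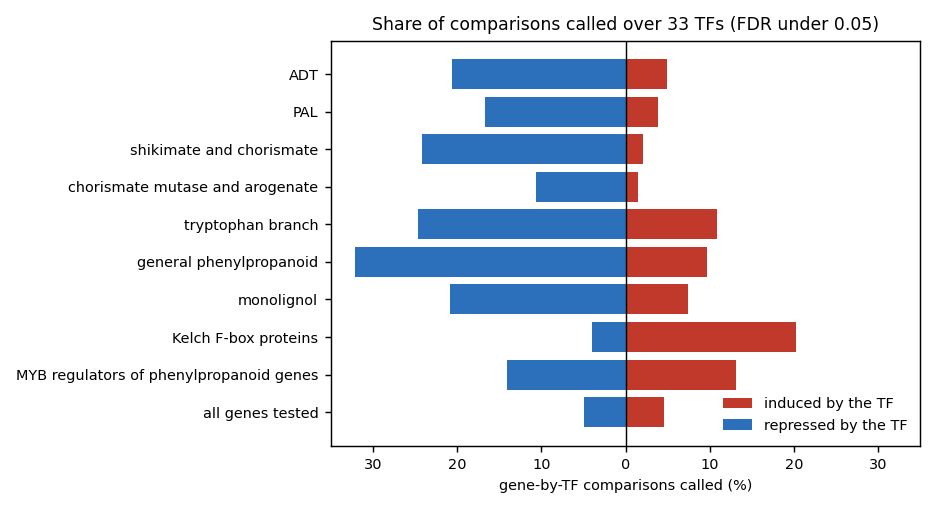
Share of gene-by-TF comparisons called (percent, FDR under 0.05) over 33 TFs for the ADT genes, the PAL genes, 7 lists of surrounding genes and all genes tested. Red bars to the right are induced and blue bars to the left repressed. The general phenylpropanoid list has the longest blue bar at 32.1%, the Kelch F-box list the longest red bar at 20.2%, and all genes tested have 4.59% induced and 4.99% repressed.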

How the data were processed

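The deposited files hold whole-number read counts per gene, which the authors made by aligning reads to TAIR10 with TopHat2 and counting overlaps with annotated genes with GenomicFeatures and GenomicAlignments. A gene was kept when 3 or more libraries had 10 or more counts of it (22883 genes). Changes were tested with edgeR 4.0.16 (R 4.3.3; TMM scaling, quasi-likelihood F-test with robust dispersions) on TF and batch in all libraries, with Benjamini-Hochberg adjustment over all genes within each TF and calls at an FDR under 0.05. The SE was taken as the size of the log2 fold change over the root of the F statistic. DESeq2 1.42.0, another scaling, no filter, other sets of libraries and a replicate block were alternatives. The script was tested on simulated counts, with changed genes placed in MYB61 among genes that averaged over 100 counts. Of 100 genes changed 1.5-fold, 48% were recovered, and of 100 changed 2-fold, 95% were.

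The members and lists were chosen with earlier results of these data known. All 10 members were named, with for each member the 3 called TFs of largest and of smallest log2 fold change, among those with a mean of at least 1 CPM in TF or EV libraries. The 2 genes called in most TFs were named for each pathway list, and for ADT4 and for the PAL gene with most calls (PAL1 and PAL2 tied) the 3 genes with the highest r. Other genes and comparisons given with values, the related TF pairs, the start-codon window, the split of batches and the r without MYB61 were chosen after values had been seen. Gene models came from RefSeq for TAIR10.1, in which 32795 of the gene identifiers were matched.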

Additional observations from a re-analysis of the deposited data

How the results depend on the processing

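Of the 69 member calls, 69 were kept with DESeq2 size factors, with DESeq2, within each batch alone and with the TF genes left out of the scaling, 67 without a filter on low counts, and 66 with batches 1 to 4 and 5 to 6 fitted apart, and none changed sign. Leaving out the libraries of each replicate number in turn gave 6 to 8 induced and 19 to 33 repressed ADT calls, 3 to 7 induced and 7 to 27 repressed PAL calls, and 78 to 117 induced and 144 to 274 repressed calls in the pathway lists. The lowest of these counts came without the libraries numbered 2 for all but the induced ADT calls, and the groups then had fewer libraries.

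A replicate block gave 38 repressed PAL calls in place of 22, and kept all 69 member calls. The replicate numbers were not taken to pair the libraries: of 97 same-numbered pairs of TF and EV libraries, 34 had a correlation of their deviations over 0.1. Among the 3 EV libraries of the batch, 56 of the 97 correlated best with the one of their own number. For ADT5, PAL1, PAL2 and PAL4, however, the EV library numbered 1 was the highest in all 6 batches. PAL3 had a median of 8 counts per library, which limits its comparisons.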
